A study of Mus musculus with 17 samples.

Results

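The genes that build cholesterol and fatty acids were followed in the cortex of male *Hnrnph2*-mutant and control mice. They comprise 32 genes, chosen by name: 7 of the mevalonate pathway (*Acat2*, *Hmgcs1*, *Mvk*, *Pmvk*, *Mvd*, *Idi1* and *Fdps*), 11 that turn its product into squalene and cholesterol (*Fdft1*, *Sqle*, *Lss*, *Cyp51*, *Tm7sf2*, *Msmo1*, *Nsdhl*, *Hsd17b7*, *Ebp*, *Sc5d* and *Dhcr7*), 4 regulators or sterol carriers (*Insig1*, *Srebf1*, *Srebf2* and *Stard4*), 9 of fatty acid synthesis, elongation and desaturation (*Acly*, *Acaca*, *Fasn*, *Scd1*, *Scd2*, *Elovl5*, *Elovl6*, *Fads1* and *Fads2*) and 1 glycerolipid gene, *Lpin1*. All 32 were among the 55453 gene symbols of the expression table, and all 32 were among the 16265 genes tested, those with a mean of at least 1 TPM over the 17 mice. TPM is the share of a library's transcripts that a gene holds, scaled so that a library sums to 1000000.

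Bulk cortex of C57BL/6J males was profiled by total RNA-Seq in 3 X-linked *Hnrnph2* lines, each beside wild-type littermates. The KO line carries a small insertion or deletion that shifts the reading frame, and the R206W and P209L lines carry the mouse counterparts of human disease substitutions in hnRNPH2, an RNA-binding protein. Hemizygous KO mice (n = 3), their littermate controls (n = 3), hemizygous R206W mice (n = 3) and their littermate controls (n = 3) were 8 weeks old, whereas hemizygous P209L mice (n = 3) and the littermate controls analysed here (n = 2) were 3 weeks old. Because only the P209L line was sampled at 3 weeks, age, line and, among the mutants, allele cannot be told apart in any comparison between the ages.

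Neurons and glia of the brain make their cholesterol locally, since lipoprotein cholesterol does not cross the blood-brain barrier, and myelinating oligodendrocytes are heavy users of both cholesterol and long fatty acids. The transcription factors encoded by *Srebf1* and *Srebf2* switch these genes on when membrane sterol is low, and *Insig1* holds their precursors in the endoplasmic reticulum when sterol is high. The usual binding sequence of these factors, the sterol regulatory element, works beside CCAAT and GC-rich boxes in many of these promoters.

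The 250 bases before the RefSeq start site (GRCm38.p6) were held for 25 of the 32 genes, as 30 windows because some genes have several starts. No window was held for *Fads1*, *Fdft1*, *Fdps*, *Scd1*, *Scd2*, *Sqle* and *Stard4*, so the motif counts do not cover them. The classical sterol regulatory element, searched as an A followed by the letters in capitals shown here, was found on either strand in 0 of the 30 windows and in 0.0731% of 32851 mouse windows of that length. The shorter form TCACNCCAC was in 1 of the 30, that of *Hmgcs1*, and in 1.05% of all. The boxes CCAAT and GGGCGG, also searched on both strands, were in 20 and 21 of the 30 windows, against 33.8% and 32.7% of all. The *Hmgcs1* window is shown because it alone held the shorter form and because the gene, which encodes the synthase that commits acetyl units to mevalonate, differed most between the 8-week control groups. It lies at chr13:119690101-119690350 on the plus strand, with the match in capitals, its first base 137 bases before the start.
Hmgcs1: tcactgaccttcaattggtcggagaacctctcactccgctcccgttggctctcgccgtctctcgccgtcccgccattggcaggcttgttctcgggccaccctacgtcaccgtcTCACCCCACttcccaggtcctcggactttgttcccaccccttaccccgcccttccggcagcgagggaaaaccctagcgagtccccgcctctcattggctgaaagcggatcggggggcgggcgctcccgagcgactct
CCAAT was read on the minus strand 45, 176 and 237 bases before the start, and GGGCGG on the plus strand at 24 and the minus strand at 92 bases before it. A match of letters is a description of the window and does not show a bound site.

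*Hnrnph2* itself was 21.3 to 24.4 TPM in KO mice and 80.5 to 145 TPM in their controls. Every library held neuronal transcripts, the summed level of 8 neuron markers being 2773 to 5626 TPM. KO control 1 stood apart, with 20.1% of its TPM on mitochondrial genes against 10.7% to 15.4% in the other mice, and it had the lowest value of the 12 8-week mice for 27 of the 32 genes, or for 9 of 32 after scaling by median-of-ratios size factors. P209L control 2 also stood apart: 5 choroid plexus markers led by *Ttr* summed to 1770 TPM there and to 2.65 to 26.4 TPM elsewhere. Both P209L controls held 107 or 113 TPM of 6 skeletal muscle markers, against 43.2 to 58.7 TPM in the other mice. Most of that excess was 1 gene, *Tnnc1*, at 85.5 and 74.6 TPM against 19.2 to 40.8 TPM in the other mice. *Myh7* was at 18.6 and 22.2 TPM against 4.15 to 21.4 TPM. *Acta1*, at 7.92 and 9.14 TPM, lay inside the 5.16 to 12.2 TPM of the others. Counts of the 32 genes past the adjusted threshold are given with and without these libraries, and single changes only where stated.

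The most abundant of the 32 transcripts was *Scd2*, the main brain isoform of the desaturase that makes oleate, at a mean of 404 TPM over the 17 mice. *Hmgcs1* came next at 192 TPM, ahead of the desaturase *Fads1* at 109 TPM and the sterol methyl oxidase *Msmo1* at 105 TPM, and these last values were closer to each other than the spread of either. The lowest were *Hsd17b7*, a sterol ketone reductase, at 11.9 TPM and *Lpin1*, a phosphatidate phosphatase, at 8.70 TPM. Among the 12 8-week mice the coefficient of variation was largest for *Hmgcs1*, at 28.2%, and smallest for *Insig1*, at 6.72%.

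**Figure D1:**
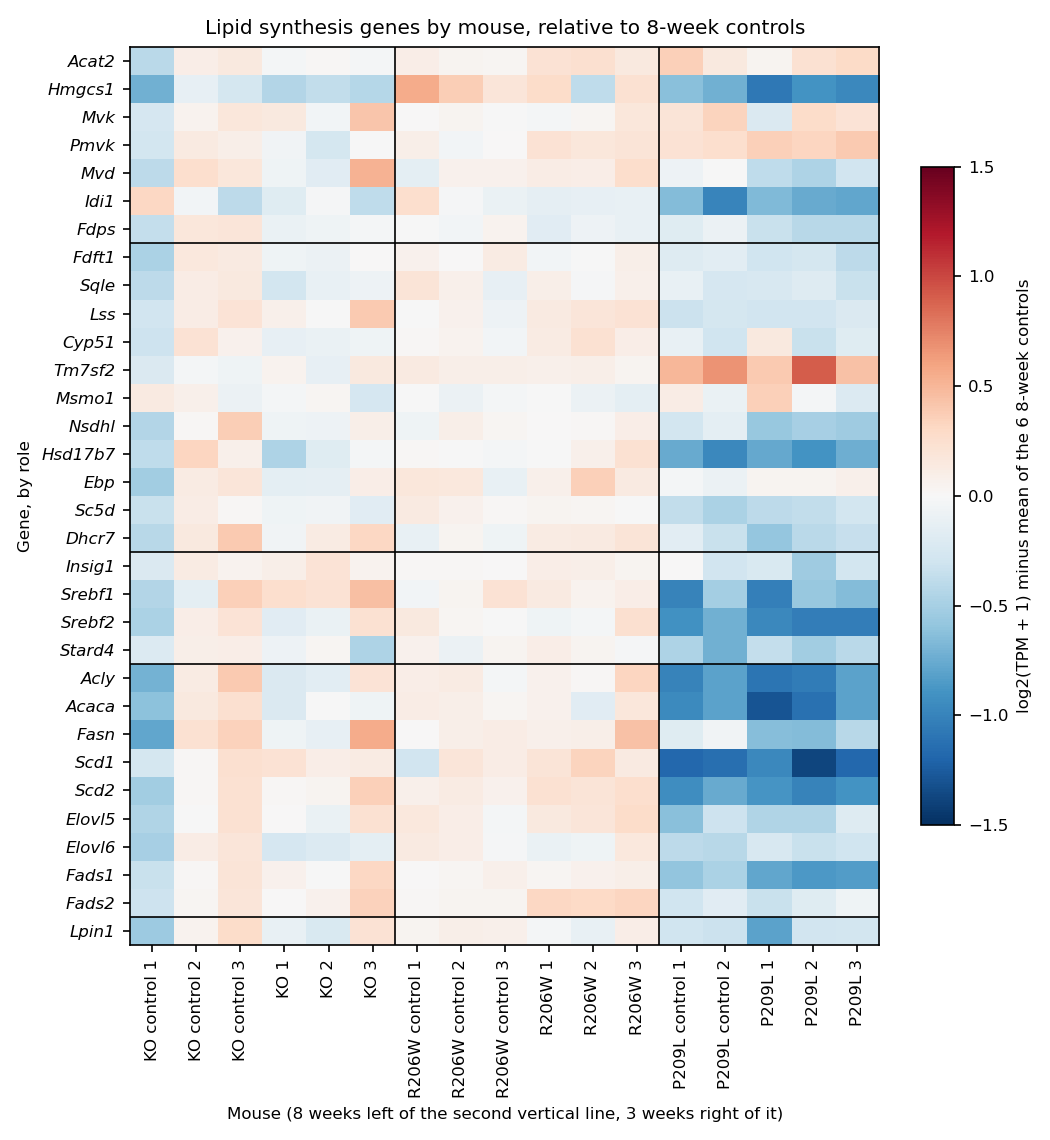
Level of each of the 32 genes (rows, grouped by role) in each of the 17 mice (columns), as log2(TPM + 1) minus the mean of the 6 8-week controls, with blue lower and red higher. The 5 3-week columns at the right are blue for most fatty acid genes and for *Srebf1* and *Srebf2* and red for *Tm7sf2*, and KO control 1 is blue for most rows.

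The first question was whether lipid synthesis genes differ between young and adult cortex. In littermate controls, 15 of the 32 genes passed the threshold (limma on log2(TPM + 1), Benjamini-Hochberg adjusted p under 0.05 over all genes tested), with 14 lower and 1, *Tm7sf2*, higher at 3 weeks. Over all genes tested 36.1% passed, 24.8% lower and 11.3% higher. The median log2 difference was -0.27 for the 32 genes and -0.12 for all genes. Without overlap between the ages, 11 of the 32 were lower and 4 higher, against 21.5% and 16.7% of all genes (38.2% in all). In bulk tissue, fewer cells of a type and less RNA per cell cannot be told apart, and TPM are shares of a library, so that a lower value is a lower share. The p-values measure the spread between mice of a group, and their precision is limited by the 2 controls at 3 weeks.

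The mutants gave a second comparison of the ages in mice that the first did not use. There 25 of the 32 genes passed, 23 lower and 2 higher at 3 weeks, where 45.9% of all genes passed, 32.1% lower and 13.9% higher. The median log2 difference was -0.44 for the 32 genes and -0.16 for all genes. Here 22 of the 32 were lower and 2 higher without overlap, against 28.6% and 11.7% of all genes (40.2% in all). Of the 32 genes, 13 were lower in both comparisons and *Tm7sf2* was higher in both. A further 10 were lower in mutants but not past the threshold in controls, *Pmvk* was higher in mutants but not past it in controls, *Elovl6* was lower in controls alone, and 6 passed in neither. The difference between both comparisons was not tested.

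**Figure D2:**
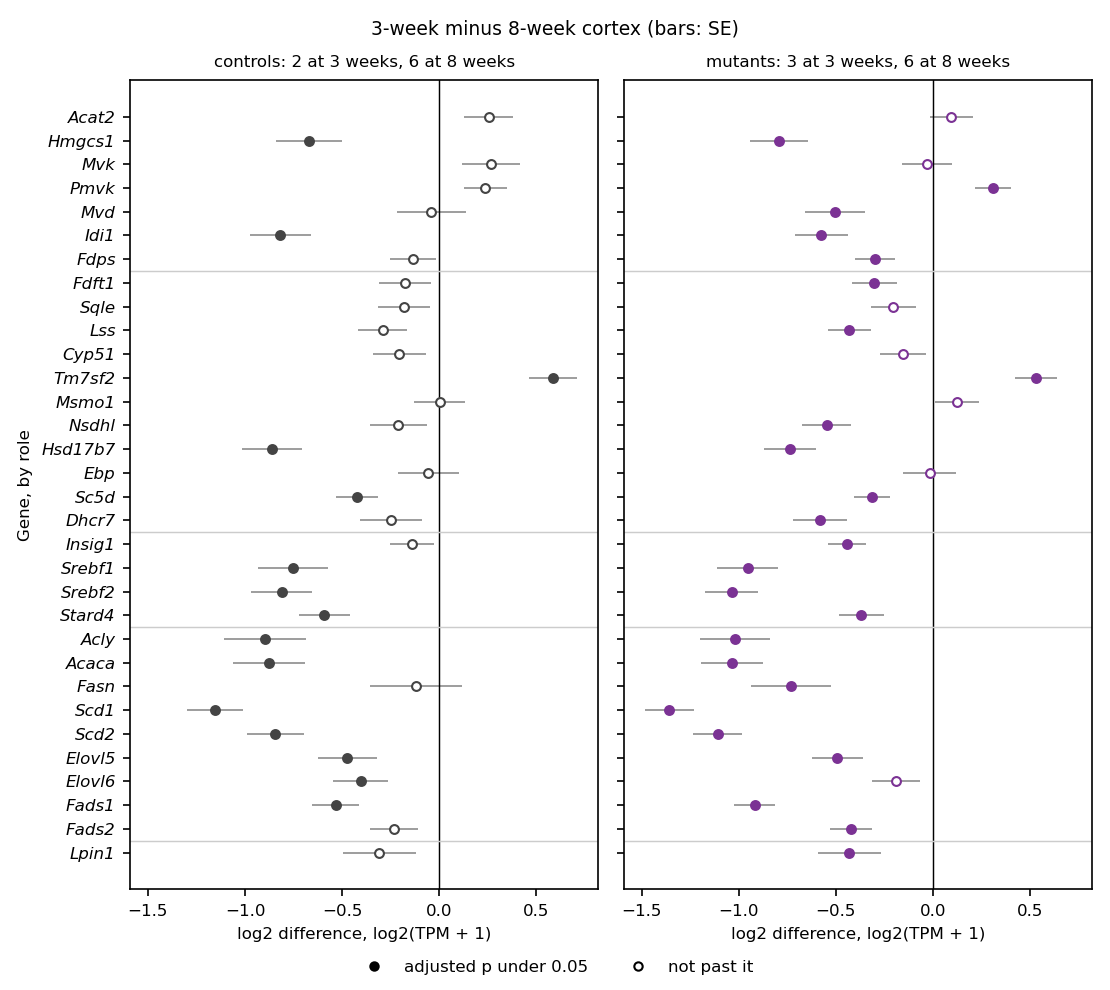
Difference between 3-week and 8-week cortex for each gene, in log2(TPM + 1), with its standard error, in controls (left, 2 against 6 mice) and mutants (right, 3 against 6 mice). Filled points have an adjusted p under 0.05: 15 genes in controls and 25 in mutants, most of them left of zero.

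Most of the fatty acid genes were lower at 3 weeks in both comparisons. In controls 7 of the 9 passed as lower (*Acly*, *Acaca*, *Scd1*, *Scd2*, *Elovl5*, *Elovl6* and *Fads1*) and 0 as higher, and in mutants 8 of 9 passed as lower, all but *Elovl6*, where 24.8% and 32.1% of all genes were lower. With size factors, which rescale each library by its median ratio to the geometric mean of the libraries, the counts were again 7 and 8, beside 23.8% and 26.6% of all genes. The summed level of the 9 genes was 528 to 629 TPM in the 5 3-week mice and 682 to 1184 TPM in the 12 8-week mice, without overlap even with KO control 1, which was the lowest of the 8-week mice. *Scd2* was the largest part of this sum, at 220.1 to 260.0 TPM in 3-week mice and 307 to 562 TPM in 8-week mice. Gene by gene, 5 of the 9 were lower without overlap in controls and 8 in mutants, against 21.5% and 28.6% of all genes.

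*Scd1*, a second stearoyl-CoA desaturase encoded beside *Scd2* on chromosome 19 (mm10, 44394455 to 44407879, against 44293674 to 44306864 for *Scd2*), differed most. It was at 35.4 and 36.7 TPM in the 3-week controls, and the 6 8-week controls ran from 66.9 through a median of 85.1 to 96.7 TPM. Every 3-week control was therefore well below every 8-week control. The log2 difference was -1.16 ± 0.15 (SE; adjusted p = 6.88e-05, limma), a level 0.449 times that at 8 weeks, and the two-sided exact permutation p of 0.0357 is the smallest that 2 against 6 mice allow. P209L mice had 30.8, 35.4 and 41.1 TPM, and 8-week mutants 87.1 to 103 TPM with a median of 91.4. In mutants, again without overlap, the log2 difference was -1.36 ± 0.13 (adjusted p = 4.10e-06).

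*Scd2* was at 230 and 260.0 TPM in the 3-week controls and at 307 to 516 TPM, median 463, in the 8-week controls. The lowest 8-week value, 307 TPM, was that of KO control 1, and it still lay above both 3-week values. The log2 difference was -0.84 ± 0.15 (limma adjusted p = 0.000633) in controls and -1.11 ± 0.13 (adjusted p = 1.94e-05) in mutants, where P209L mice had 220.1 to 237 TPM and 8-week mutants 447 to 562 TPM.

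*Acly* and *Acaca* encode the enzymes that make cytosolic acetyl-CoA from citrate and carboxylate it to malonyl-CoA. *Acly* was at 32.4 and 37.3 TPM in the 3-week controls against 39.7 to 86.4 TPM, median 71.0, at 8 weeks. The gap to the lowest 8-week mouse, KO control 1, was small, and the log2 difference was -0.90 ± 0.21 (limma adjusted p = 0.00431). *Acaca* was at 13.5 and 15.1 TPM at 3 weeks and at 17.3 to 32.1 TPM, median 29.1, at 8 weeks, a log2 difference of -0.88 ± 0.19 (adjusted p = 0.00226). In mutants both were about 0.49 times as high at 3 weeks, with log2 differences of -1.02 ± 0.18 and -1.03 ± 0.16 and no overlap.

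*Fasn*, the synthase that follows them, was at 63.5 and 69.4 TPM in the 3-week controls, inside the 41.7 to 92.4 TPM of the 8-week controls (log2 difference -0.12 ± 0.24, limma adjusted p = 0.72). P209L mice had 46.2, 45.6 and 53.8 TPM, below the 66.3 to 107 TPM of 8-week mutants, and the log2 difference of -0.73 ± 0.21 passed (adjusted p = 0.00944).

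The desaturase *Fads1*, which acts late in making arachidonate and its relatives, was at 79.0 and 85.8 TPM in the 3-week controls. The 8-week controls held 94.5 to 137 TPM with a median of 122. They did not overlap, and the log2 difference was -0.53 ± 0.12 (limma adjusted p = 0.00352). P209L mice were lower still, at 69.4, 65.4 and 66.5 TPM, against 119 to 148 TPM in 8-week mutants (-0.92 ± 0.10, adjusted p = 1.79e-05). Its partner *Fads2* passed in mutants alone (-0.42 ± 0.11, adjusted p = 0.00533; -0.23 ± 0.12, adjusted p = 0.155 in controls). The elongase *Elovl5* was lower by -0.47 ± 0.15 in controls and -0.49 ± 0.13 in mutants on the log2 scale.

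Of the 4 regulators and carriers, *Srebf1*, *Srebf2* and *Stard4* were lower at 3 weeks in controls and all 4 in mutants. Of all genes tested, 24.8% were lower in controls and 32.1% in mutants. *Srebf2*, the main switch for the sterol enzymes, was at 45.9 and 52.4 TPM in the 3-week controls and at 62.2 to 100.1 TPM, median 90.8, in the 8-week controls. All 6 adult values were higher, and the log2 difference was -0.81 ± 0.16 (limma adjusted p = 0.00128). P209L mice lay close together at 43.9, 41.8 and 41.6 TPM against 76.9 to 103 TPM in 8-week mutants, a difference of -1.04 ± 0.14 (adjusted p = 4.84e-05).

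*Srebf1*, which favours the fatty acid genes, was at 10.7 and 15.4 TPM in the 3-week controls and 16.3 to 29.0 TPM, median 22.4, in the 8-week controls, without overlap (log2 difference -0.75 ± 0.18, limma adjusted p = 0.00507). *Stard4*, a soluble carrier that moves cholesterol between membranes, was at 11.1 and 9.04 TPM at 3 weeks and 13.4 to 16.7 TPM, median 16.2, at 8 weeks. Its log2 difference was -0.59 ± 0.13 (adjusted p = 0.0031) in controls and -0.37 ± 0.11 (adjusted p = 0.0159) in mutants, where the ranges overlapped because KO 3 had 11.01 TPM. *Insig1* differed by -0.14 ± 0.11 (adjusted p = 0.351) in controls and passed at -0.44 ± 0.10 (adjusted p = 0.00224) in mutants. With size factors, *Stard4* no longer passed in mutants (adjusted p = 0.124), while the other calls among the 4 held. On that scale 23.8% of all genes were lower in controls and 26.6% in mutants.

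Of the 18 genes of the sterol route itself, 5 passed in controls, 4 lower and 1 higher, where 36.1% of all genes did. In mutants 12 of the 18 passed, 10 lower and 2 higher, beside 45.9% of all genes. By direction, 24.8% of all genes were lower and 11.3% higher in controls, and 32.1% and 13.9% in mutants. Of the 7 mevalonate genes, 2 were lower in controls (*Hmgcs1* and *Idi1*), and 4 were lower and 1 higher in mutants. With size factors the 7 split into 2 lower and 3 higher in controls, beside 23.8% and 19.9% of all genes. In mutants the split was 2 lower and 2 higher, beside 26.6% and 24.4%. Of the 11 genes from squalene to cholesterol, 2 were lower (*Hsd17b7* and *Sc5d*) and 1 higher in controls without size factors, against 24.8% and 11.3%. In mutants 6 were lower and 1 higher, against 32.1% and 13.9%. The summed level of the 18 genes was 638 to 713 TPM at 3 weeks and 643 to 947 TPM at 8 weeks, so the ages overlapped.

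*Idi1*, the isomerase that makes the chain starter dimethylallyl diphosphate, was at 23.0 and 18.1 TPM in the 3-week controls and 27.7 to 45.6 TPM, median 35.9, in the 8-week controls. It was one of 2 genes for which KO control 1 had the highest 8-week level, and the log2 difference was -0.82 ± 0.16 (limma adjusted p = 0.0012). In mutants it differed by -0.57 ± 0.14 (adjusted p = 0.00327, or 0.069 with size factors). *Hsd17b7* was at 7.81 and 6.62 TPM at 3 weeks and 10.4 to 17.7 TPM, median 13.9, at 8 weeks. No value overlapped, and the difference was -0.86 ± 0.15 (adjusted p = 0.000757) in controls and -0.73 ± 0.13 (adjusted p = 0.00055) in mutants.

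*Tm7sf2*, a sterol reductase that shares its reaction with the lamin B receptor, ran the other way. It was at 36.0 and 40.6 TPM in the 3-week controls and 21.6 to 27.7 TPM, median 25.7, in the 8-week controls. P209L mice had 33.4, 48.0 and 34.4 TPM and 8-week mutants 23.0 to 27.9 TPM. All 5 young mice thus stood above all 12 adults, with log2 differences of 0.59 ± 0.12 (limma adjusted p = 0.00239) and 0.53 ± 0.11 (adjusted p = 0.00118). *Pmvk*, the kinase of phosphomevalonate, was 52.0 to 58.6 TPM in the 5 young mice and 36.6 to 52.1 TPM in the adults, a difference of 0.31 ± 0.10 in mutants (adjusted p = 0.0149) and 0.24 ± 0.11 in controls (adjusted p = 0.102).

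Several neighbouring steps showed no call in either comparison. *Msmo1* was 91.9 to 136 TPM at 3 weeks and 88.7 to 117 TPM at 8 weeks, with log2 differences of 0.00 ± 0.13 in controls and 0.12 ± 0.11 in mutants. *Sqle*, *Cyp51* and *Ebp*, which add an oxygen to squalene, remove a methyl group from the sterol and shift a double bond, differed by -0.21 to -0.02 in both comparisons, with adjusted p of 0.166 to 0.935. *Acat2* and *Mvk* make up the 6 genes that passed in neither comparison.

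**Figure D3:**
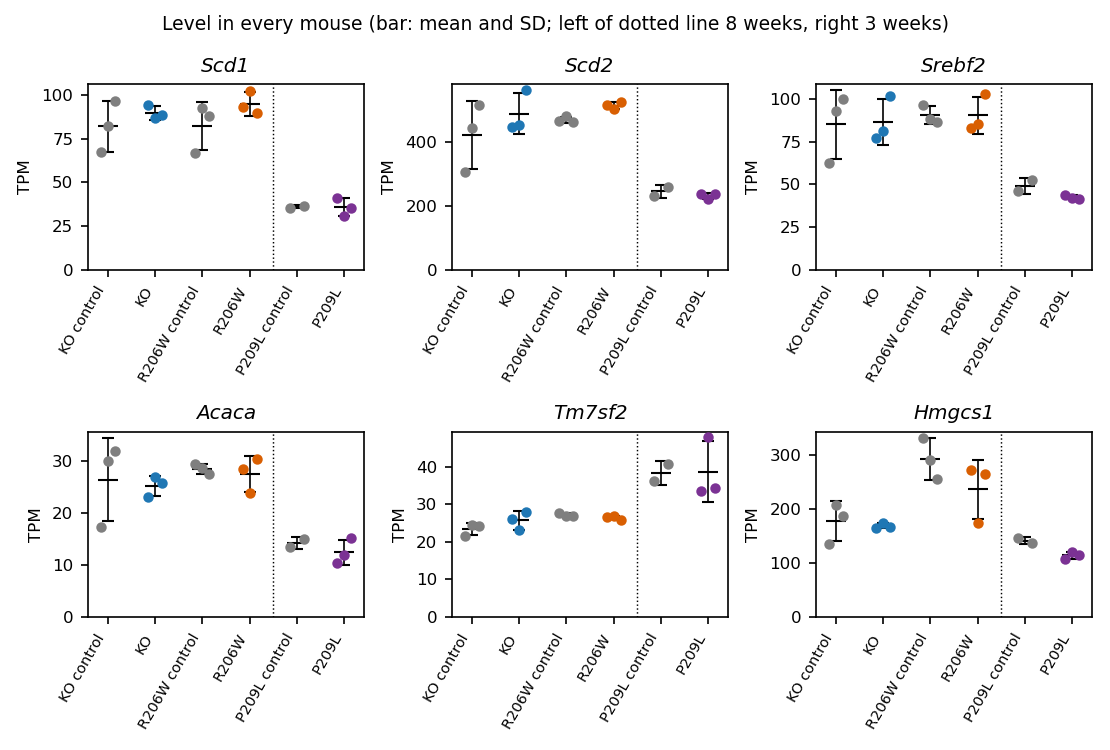
TPM in every mouse, by group, for *Scd1*, *Scd2*, *Srebf2*, *Acaca*, *Tm7sf2* and *Hmgcs1*, with each group's mean and SD; groups right of the dotted line are 3 weeks old and axes start at 0. *Scd1* is 30.8 to 41.1 TPM in the young mice and 66.9 to 103 TPM in the adults, *Tm7sf2* is higher in all young mice, and *Hmgcs1* spreads from 136 to 333 TPM among 8-week controls.

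Scaling moved part of this picture. Median-of-ratios size factors shifted the median log2 difference of all genes from -0.16 to -0.01 in mutants and from -0.12 to -0.02 in controls. Relative to that scale, 14 of the 32 genes were lower and 4 higher at 3 weeks in controls, *Acat2*, *Mvk* and *Pmvk* joining *Tm7sf2*, where 23.8% of all genes were lower and 19.9% higher. In mutants 18 were lower and 3 higher, where 26.6% of all genes were lower and 24.4% higher, and *Idi1*, *Fdps*, *Fdft1*, *Sc5d* and *Stard4* no longer passed.

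Single libraries also decided part of the count. Without KO control 1, 24 genes passed in controls, 23 lower and 1 higher, beside 50.3% of all genes. Without P209L control 1 or P209L control 2 the count was 10, beside 18.3% and 16.7% of all genes, in each case with 1 mouse left at 3 weeks that was taken to vary like the other groups, and *Tm7sf2* was among the losses without P209L control 2 (adjusted p = 0.0552). With both KO control 1 and P209L control 2 left out, a choice made after seeing the data, 20 passed, 19 lower and 1 higher, beside 36.1% of all genes.

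Cell type markers differed between the ages too. The summed level of 8 neuron markers was 2773 to 3358 TPM at 3 weeks and 3133 to 5626 TPM at 8 weeks, overlapping through KO control 1 alone. Oligodendrocyte markers, 11 in all and led by *Mbp*, summed to 3233 and 4873 TPM in the 3-week controls, above the 2225 to 3049 TPM of the 8-week controls, while P209L mice held 1919 to 2808 TPM and 8-week mutants 2282 to 3267 TPM. Of these 11, 7 passed as higher and 0 as lower at 3 weeks in controls, against 11.3% and 24.8% of all genes. In mutants 0 passed as higher and 3 as lower, against 13.9% and 32.1%. With size factors controls had 7 higher and 0 lower, beside 19.9% and 23.8% of all genes. Mutants then had 1 higher and 3 lower, beside 24.4% and 26.6%. Without overlap, 6 were higher in controls and 2, *Aspa* and *Ermn*, lower, against 16.7% and 21.5% of all genes.

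Markers of other cells moved as well. Over all genes tested 24.8% were lower and 11.3% higher in controls, and 32.1% and 13.9% in mutants. With size factors these shares were 23.8% and 19.9% in controls and 26.6% and 24.4% in mutants. The sum of 6 microglia markers was 165 to 196 TPM at 3 weeks and 200.2 to 292 TPM at 8 weeks, so the ages did not overlap, and 3 of the 6 were lower and 1 higher in each comparison (2 lower and 1 higher with size factors). Of 8 astrocyte markers, 3 were lower in controls and 5 in mutants, with 0 higher and the same counts with size factors, and median log2 differences of -0.39 and -0.54. Their sums, 533 to 801 TPM at 3 weeks and 723 to 987 TPM at 8 weeks, overlapped. Of 6 endothelial markers, 1 was lower and 1 higher in controls and 4 lower and 0 higher in mutants (2 lower and 1 higher, and 4 lower and 1 higher, with size factors), and the medians were -0.46 and -0.95. The part of any of these markers in the differences of the lipid genes was not tested.

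**Figure D4:**
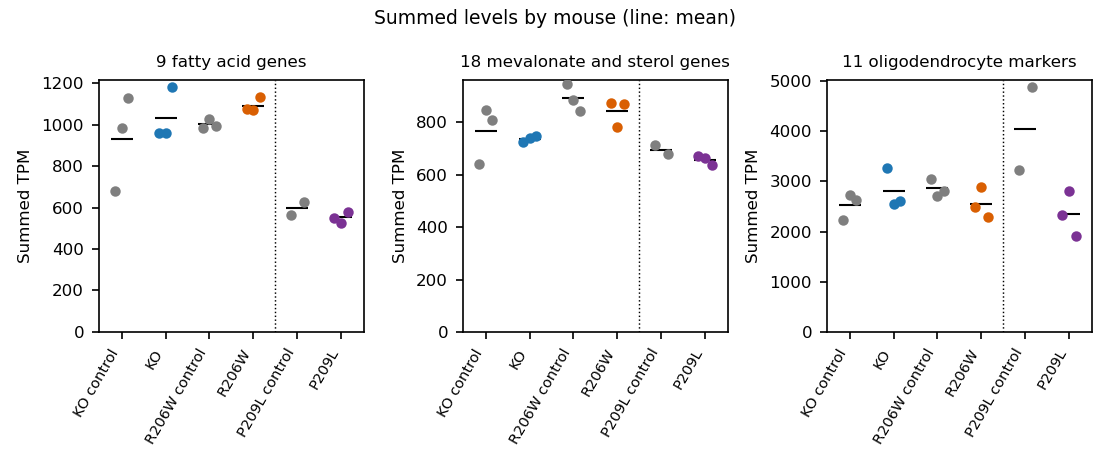
Summed TPM per mouse, with the mean of each group as a line, for the 9 fatty acid genes, the 18 mevalonate and sterol genes and 11 oligodendrocyte markers; groups right of the dotted line are 3 weeks old. The fatty acid sum is 528 to 629 TPM in young and 682 to 1184 TPM in adult mice, whereas the oligodendrocyte sums of the P209L controls, 3233 and 4873 TPM, lie above those of every other control.

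Other genes of the same pathways, 40 listed by name and 36 tested, showed 10 lower and 2 higher at 3 weeks in controls and 15 lower and 2 higher in mutants, beside the 36.1% and 45.9% of all genes that passed. By direction, 24.8% of all genes were lower and 11.3% higher in controls, and 32.1% and 13.9% in mutants. With size factors the 36 tested genes gave 10 lower and 4 higher in controls, beside 23.8% and 19.9% of all genes. In mutants they gave 12 lower and 7 higher, beside 26.6% and 24.4%. The malic enzyme *Me1*, a source of NADPH for fatty acid synthesis, had a log2 difference of -0.57 in controls and -0.53 in mutants, and *Mid1ip1*, which promotes assembly of acetyl-CoA carboxylase, one of -0.78 and -1.08. *Hacd1*, a dehydratase of fatty acid elongation, was higher at 0.66 and 0.94. Of 14 tested genes of cholesterol turnover and export, 2 were lower and 2 higher in controls, against 24.8% and 11.3% of all genes. In mutants 5 were lower and 0 higher, against 32.1% and 13.9%. With size factors controls had 2 lower and 4 higher, beside 23.8% and 19.9% of all genes. Mutants then had 5 lower and 1 higher, beside 26.6% and 24.4%. Among the 14 was *Soat1*, which esterifies cholesterol, at -1.01 in controls and -0.91 in mutants.

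The second question was what loss of *Hnrnph2* does to these genes. In 8-week KO cortex 0 of the 32 passed the adjusted threshold by limma, where 0.00615% of all genes did, and at an unadjusted p under 0.05 the count was also 0, against 4.08% of all genes. The groups overlapped for every one of the 32 genes, against 6.25% of all genes without overlap. The median log2 change was 0.02 for the 32 genes and 0.06 for all genes. It was -0.16 without KO control 1 and -0.05 with size factors, under which 4 of the 32 genes and 5.2% of all genes reached an unadjusted p under 0.05, so no direction can be given.

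The smallest p was that of *Srebf1*, at 26.8, 26.3 and 31.1 TPM in KO mice and 16.3, 20.2 and 29.0 TPM in their controls. The lowest control was KO control 1 and the groups overlapped, with a log2 change of 0.38 ± 0.18 (limma adjusted p = 0.999, two-sided exact permutation p = 0.3). *Scd2* was at 447, 454 and 562 TPM in KO mice and 307, 444 and 516 TPM in controls (log2 change 0.23 ± 0.15). *Hsd17b7* was at 9.83, 12.1 and 13.5 TPM against 10.4, 17.7 and 14.6 TPM (log2 change -0.23 ± 0.15).

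The desaturases came next in order of p. *Fads2* was at 83.2, 86.6 and 105 TPM in KO mice and 66.7, 84.2 and 94.1 TPM in controls, and *Fads1* at 125, 119 and 148 TPM and 94.5, 121 and 137 TPM. Their log2 changes were 0.17 ± 0.12 and 0.16 ± 0.12, again with overlap and with KO control 1 lowest. As each mouse was left out, these changes ran from 0.03 to 0.28 for *Fads2* and from 0.02 to 0.28 for *Fads1*. Those of *Srebf1*, *Scd2* and *Hsd17b7* ran from 0.20 to 0.60, from 0.02 to 0.39 and from -0.42 to -0.07.

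The third question was what the disease substitutions do. In R206W cortex the adjusted threshold was passed by 0 of the 32 genes (0.0369% of all genes) and an unadjusted p under 0.05 by 1 (2.19% of all genes). That gene was *Fads2*, the desaturase that takes the first step on linoleate. It was at 103, 102 and 104 TPM in R206W mice and 83.8, 85.5 and 85.2 TPM in their controls. Both groups were tight and did not overlap, and the log2 change was 0.28 ± 0.12 (limma adjusted p = 1). The two-sided exact permutation p was 0.1, the smallest that 3 against 3 mice allow. With size factors, 2 of the 32 genes as higher and 1 as lower reached an unadjusted limma p under 0.05. Over all 16265 genes tested, 366 did so as higher and 187 as lower.

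*Hmgcs1* was at 273, 174 and 265 TPM in R206W mice and 333, 292 and 256 TPM in controls, overlapping, with a log2 change of -0.33 ± 0.17 (limma adjusted p = 1). *Pmvk* was at 52.1, 50.5 and 51.0 TPM against 47.6, 43.3 and 44.7 TPM (0.18 ± 0.11), and *Scd1* at 93.0, 103 and 89.7 TPM against 66.9, 92.5 and 87.9 TPM (0.22 ± 0.15). *Lss*, which closes the sterol rings, was at 20.9, 21.6 and 22.2 TPM against 18.9, 19.98 and 17.9 TPM (0.18 ± 0.13). For *Pmvk* and *Lss* the groups did not overlap. In all, 9 of the 32 genes were above every control and 2, *Idi1* and *Fdps*, below every control, where 8.09% and 8.11% of all genes were (16.2% together), and the median log2 change was 0.04 beside 0.01 for all genes.

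Of the 32 genes, 0 reached the adjusted threshold in 3-week P209L cortex (0.0984% of all genes) and 1 an unadjusted p under 0.05 (7.46% of all genes). With size factors 5 reached the latter, all lower in P209L, beside 10.9% of all genes. Without overlap, 9 of the 32 were below both controls and 3 above, where 10.7% and 14.2% of all genes were (24.9% together). The 9 were *Hmgcs1*, *Mvd*, *Fdps*, *Fdft1*, *Nsdhl*, *Dhcr7*, *Srebf2*, *Fasn* and *Fads1*, and the 3 were *Pmvk*, *Ebp* and *Elovl6*. The median log2 change was -0.07 for the 32 genes and 0.02 for all genes.

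*Fads1* had the smallest p: 69.4, 65.4 and 66.5 TPM in P209L mice and 79.0 and 85.8 TPM in their controls. The log2 change was -0.29 ± 0.13 (limma adjusted p = 0.66), and the exact permutation p of 0.1 is the smallest that 3 against 2 mice allow. *Nsdhl*, which removes a carboxyl group from the sterol ring, was at 11.1, 11.8 and 11.4 TPM against 13.8 and 15.3 TPM (-0.32 ± 0.16).

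*Fdps*, the farnesyl diphosphate synthase, was at 48.6, 46.2 and 46.0 TPM in P209L mice against 54.4 and 57.9 TPM in controls, a log2 change of -0.25 ± 0.13. *Mvd*, the mevalonate diphosphate decarboxylase, was at 12.1, 11.4 and 13.0 TPM against 15.2 and 16 TPM (-0.34 ± 0.20). *Fasn*, whose levels are given above, had a log2 change of -0.45 ± 0.27, the largest of the 32. None of these 5 passed the adjusted threshold, and in each the 3 P209L mice lay below both controls. As each mouse was left out, the log2 change ran from -0.39 to -0.25 for *Nsdhl* and from -0.30 to -0.21 for *Fdps*. It ran from -0.38 to -0.29 for *Mvd* and from -0.52 to -0.39 for *Fasn*.

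Oligodendrocyte markers moved with this comparison. All 11 were lower in each P209L mouse than in both controls, as were 10.7% of all genes, with a median log2 change of -0.81. An unadjusted limma p under 0.05 was reached by 10 of the 11, beside 7.46% of all genes. The adjusted threshold was passed by 0, beside 0.0984% of all genes. With size factors 1 passed as lower, beside 0.141% of all genes. P209L control 2 had the highest sum of the 17 mice, 4873 TPM, against 3233 TPM in P209L control 1 and 1919 to 2808 TPM in P209L mice. The median change is not given without P209L control 2. Choroid plexus and skeletal muscle transcripts in these controls, given above, differed as well. Their part in the lower lipid values was not tested. Without P209L control 2 the count past the adjusted threshold was still 0 of 32, and the log2 change of *Fads1* ranged from -0.35 to -0.23 as each mouse was left out.

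**Figure D5:**
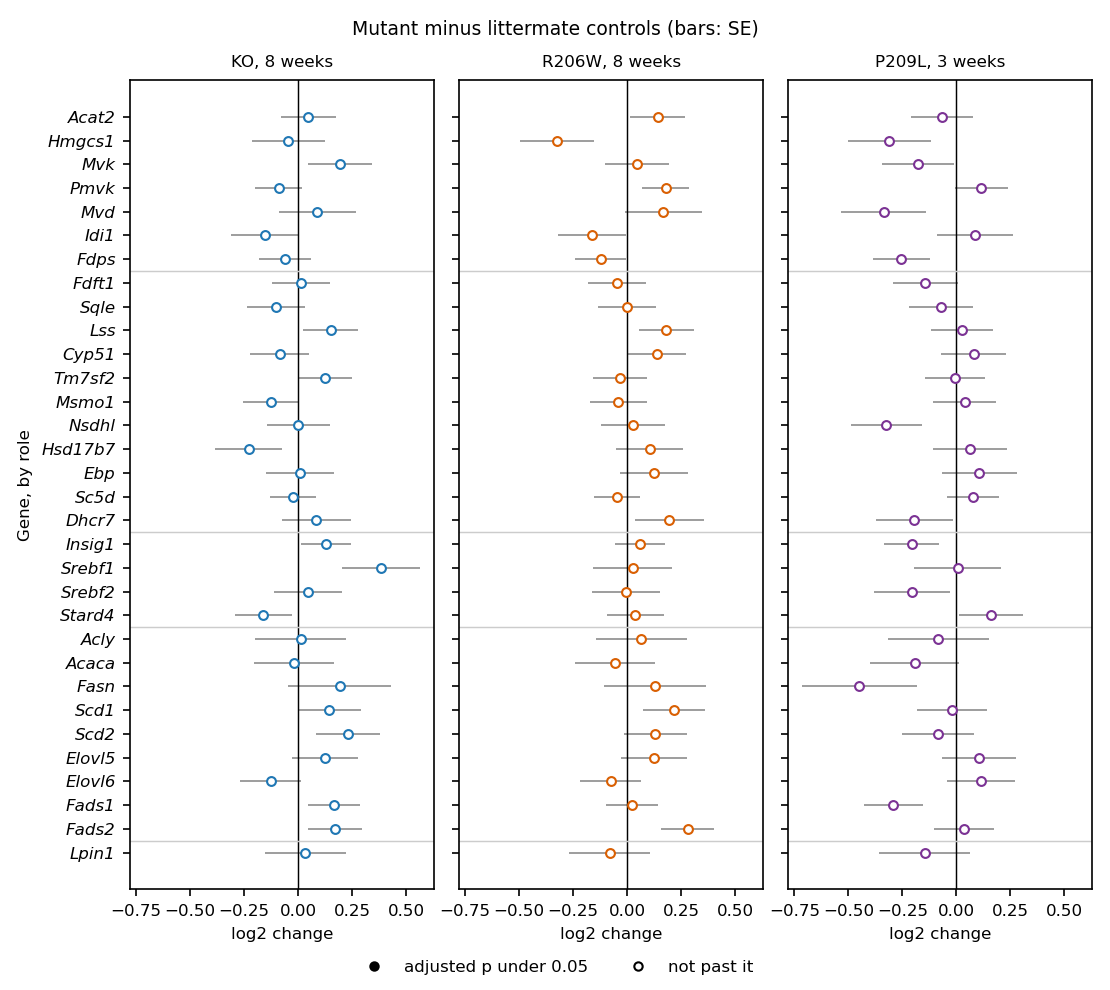
Log2 change in log2(TPM + 1), with its standard error, of each of the 32 genes in KO, R206W and P209L cortex against littermate controls. Every point is open, since 0 genes passed the adjusted threshold in any line, and the changes lie between -0.45 and 0.38.

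The effects of the alleles were also set against each other. The change in P209L minus that in R206W was past the adjusted threshold for 0 of the 32 genes and past the unadjusted one for 0, beside 0% and 3.98% of all genes. The smallest p was that of *Mvd*, with a difference of -0.50 ± 0.27 (limma adjusted p = 1). The change in KO minus that in R206W passed for 0 of 32 at either threshold as well, where 0.0307% and 2.29% of all genes did. *Pmvk* had the smallest p, with a difference of -0.27 ± 0.16 (limma adjusted p = 1). Age and line differ between P209L and R206W, and the standard errors allow differences of this size to go unseen. With size factors, 4 of the 32 genes as lower and 0 as higher reached an unadjusted limma p under 0.05 for P209L minus R206W. Over all 16265 genes tested, 510 did so as lower and 504 as higher. For KO minus R206W, 2 of the 32 as lower and 0 as higher reached it, beside 269 and 204 of all genes.

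Wild-type mice of the KO and R206W lines, both 8 weeks old, served to show how far control groups differ. By limma, 0 of the 32 genes passed after adjustment (0% of all genes) and 1 before it, at an unadjusted p under 0.05 (3.12% of all genes). That gene was *Hmgcs1*, at 333, 292 and 256 TPM in the R206W controls and 136, 208 and 188 TPM in the KO controls. The groups did not overlap, as for 2 of the 32 genes and 9.07% of all genes, and the log2 difference was 0.74 ± 0.17 (limma adjusted p = 0.784), or 0.56 to 0.86 as each mouse was left out. It was larger than the change of any of the 32 genes between mutants and their littermates. The *Hmgcs1* levels at 3 weeks, 137 and 146 TPM in controls, overlapped the 8-week controls through KO control 1 alone, at 136 TPM. The other 8-week controls held 188 to 333 TPM. With size factors the ages did not overlap, at 144 and 157 in the 3-week controls and 169 to 304 in the 8-week controls. The fitted log2 difference on TPM, -0.67 ± 0.17, passed (limma adjusted p = 0.00729).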

How the data were processed

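Bulk cortex was profiled in 17 male mice, in 6 groups taken from the sample labels. The authors deposited one table of TPM per gene and mouse, so that library depth is unknown and no counting interval could be given. The submitters' processing notes name Trim Galore, STAR 2.7.1a, GATK 4.0.4.0, RSEM and mm10; the annotation is not given in the sources used here. The TPM of entries sharing a symbol were summed, which took 55573 entries to 55453 symbols.

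Testing covered genes averaging 1 TPM or more and used limma 3.58.1 in R 4.3.3 on log2(TPM + 1), a scale that understates fold changes of low genes: a mean per group over all 17 mice, trended empirical Bayes, two-sided, Benjamini-Hochberg adjusted. Exact permutation tests were run for single genes. Levels of every mouse are given for the 5 genes of smallest p in each mutant comparison and the 10 in the control age comparison. The 32 genes, the marker lists and the other pathway lists were chosen with earlier results of these data known; 1 listed marker is not reported here and was left out of its sum. Promoters and motifs came from RefSeq windows and positions from the GENCODE annotation, both GRCm38. Scripts were tested on simulated data. Alternatives changed the pseudocount, filter, scaling, sample weights, block and mice used.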

Additional observations from a re-analysis of the deposited data

Results flagged for a closer look

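Among 64 sets of 6 mice (the 32 genes in 8-week controls and in 8-week mutants), 12 held a mouse whose gap to its nearest neighbour exceeded Dixon's critical value of 0.625 times the range; chance alone flags about 1 set in 20. In 9 of the 12 the mouse was KO control 1, the lowest of the 8-week controls: *Acat2* at 22.4 TPM, *Fdft1* at 34.1 TPM, *Sc5d* at 38.0 TPM, *Insig1* at 48.8 TPM, *Srebf2* at 62.2 TPM, *Acaca* at 17.3 TPM, *Scd2* at 307 TPM, *Elovl6* at 17.9 TPM and *Lpin1* at 6.10 TPM. This library also had the highest mitochondrial share, 20.1%, and the lowest size factor of the 17, 0.805. Among 8-week mutants the mice were KO 2 for *Insig1*, highest at 65.6 TPM, and KO 3 for *Stard4*, lowest at 11.01 TPM, and for *Fads1*, highest at 148 TPM. Their part in the results was not tested beyond leaving out each mouse.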

How the results depend on the processing

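The counts of genes past the adjusted threshold ranged, as each mouse was left out, from 10 to 24 for the ages in controls and from 19 to 24 for the ages in mutants, and stayed at 0 in KO, R206W, P209L, the 8-week control comparison and both differences between alleles. The count of 24 came without KO control 1, and 10 came without P209L control 1 or P209L control 2. With estimated sample weights, 2 genes passed in R206W (*Fads2* and *Pmvk*, both higher), 1 in P209L (*Fads1*, lower), 25 for the ages in controls and 27 in mutants, and the KO changes turned to -0.059 for *Srebf1*, -0.16 for *Scd2*, -0.14 for *Fads2* and -0.095 for *Fads1*. That estimate had not converged and left KO control 2 with a weight near 0. The remaining alternatives, among them leaving out KO control 1 and P209L control 2 together (added after seeing the data), gave 12 to 20 genes for the ages in controls and 21 to 25 in mutants. The calls closest to the threshold were *Elovl6* in controls, lost under 9 of 18 alternatives, and *Fdft1* in mutants, lost under 12 of 18. *Sc5d* and *Elovl5* were also lost in controls when the fit held the groups compared alone (adjusted p = 0.052 and 0.08, limma). The median log2 change of the 32 genes in KO ran from -0.16 to 0.15 as each mouse was left out.

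A fit with the replicate number as a block gave 14 genes for the ages in controls, 25 in mutants and 0 in every other comparison. The numbers share no stated litter or batch, and deviations of same-numbered mice correlated at 0.117, -0.0581 and 0.331 in KO, -0.0283, -0.0297 and -0.113 in R206W, and 0.0814 and 0.00276 in P209L, so they were not taken to pair the mice.

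With 2 or 3 mice a group and no read counts, small changes of these genes could not be resolved, and depth could not be weighed.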
